A study of Drosophila melanogaster with 2 samples.

Results

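The cytoplasmic ribosomal protein genes of Drosophila melanogaster were examined for binding of aop (anterior open, also called Yan), an ETS-domain transcriptional repressor. They were taken as every protein-coding gene of the annotation whose symbol begins with RpL or RpS and a digit, or with RpLP and a digit, which gave 92 genes of 13986. The mitochondrial ribosomal protein genes, whose symbols begin with mRp, were not among them. The symbol rule used no measured value. It misses sta, which encodes the small-subunit protein SA, and it takes in 5 genes whose symbols end in -like, of which RpL24-like, RpL7-like and RpLP0-like are named after ribosomal proteins but are related to ribosome assembly factors of yeast.

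Chromatin was taken from whole embryos of the strain labelled aop-GFP, 0 to 24 h old, in which aop is fused to enhanced green fluorescent protein, and was precipitated with an antibody against GFP. There were 2 biological replicates of 1 group, and no untagged or input library was analysed here. Because whole embryos were used, a peak cannot be assigned to a tissue or a stage, and the labels do not say which promoter or copy number the fusion has. Peaks are the authors' own, called on dm6 on both replicates together (1725 peaks in the combined thresholded list, with 147076 ranked candidates behind it) and on each replicate alone (628 peaks in replicate 1 and 1142 in replicate 2). Read depth is unknown, since the lists hold no counts.

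Each ribosome is built from a small and a large subunit, each a scaffold of ribosomal RNA with a set of proteins needed in roughly equal numbers, and the genes for those proteins are therefore among the most strongly transcribed in growing cells. Loss of a copy of many of them gives the Minute phenotype in flies, with slow development and short bristles. Most of their promoters start transcription at a pyrimidine-rich element called the TCT initiator rather than at the usual initiator. Elements bound by DREF, a factor of proliferation genes, and by Myc, a growth regulator that binds the E-box, are also known from such promoters.

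The promoters below are examples of the elements found at these genes. They were picked for the elements they hold, so they show no difference between bound and other genes. Each runs from 80 bases before an annotated transcription start site (TSS) to 20 bases from the TSS on, 5′ to 3′ on the gene's strand, from Release 6 of the genome (dm6). Capitals mark the TCT initiator within 5 bases of the TSS, and matches on either strand to TATCGATA (the DREF/BEAF site), CACGTG (the E-box), GGTCACAC (Motif 1, bound by M1BP) and CGGAA (the core of an ETS site, which reads TTCCG on the other strand). The first 7 genes had a peak. RpS29, RpS6, RpS15Aa and RpS25 were chosen because they hold a DREF/BEAF site, RpL7 because it holds an E-box, and RpL24 and RpL30 because they hold an ETS core.
RpS29 (chr3R:9778017-9778116, plus strand): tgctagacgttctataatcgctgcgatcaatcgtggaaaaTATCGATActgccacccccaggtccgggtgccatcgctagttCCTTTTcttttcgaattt
RpS6 (chrX:7901312-7901411, minus strand): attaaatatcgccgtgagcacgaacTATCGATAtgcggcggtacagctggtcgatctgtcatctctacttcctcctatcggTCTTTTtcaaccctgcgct
RpS15Aa (chrX:13337619-13337718, minus strand): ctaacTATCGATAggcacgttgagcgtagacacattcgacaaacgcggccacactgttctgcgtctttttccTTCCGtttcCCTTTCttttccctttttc
RpS25 (chr3R:11216268-11216367, minus strand): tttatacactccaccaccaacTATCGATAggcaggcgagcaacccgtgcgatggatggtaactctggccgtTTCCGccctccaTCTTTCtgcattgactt
RpL7 (chr2L:10201020-10201119, plus strand): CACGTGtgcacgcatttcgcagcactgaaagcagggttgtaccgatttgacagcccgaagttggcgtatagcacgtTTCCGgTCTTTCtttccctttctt
RpL24 (chr2L:13395073-13395172, minus strand): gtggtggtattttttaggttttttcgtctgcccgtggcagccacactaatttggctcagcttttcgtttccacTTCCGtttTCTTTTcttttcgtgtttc
RpL30 (chr2L:19009218-19009317, minus strand): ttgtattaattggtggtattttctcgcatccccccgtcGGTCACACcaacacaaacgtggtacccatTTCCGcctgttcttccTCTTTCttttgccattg

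The next 4 had no candidate within 500 bp of any TSS in the combined ranked list and were chosen because they hold the initiator. RpL9, RpL5 and RpL21 had one in the list of at least 1 replicate, and RpS3A in neither. The searched elements also occur in the wider promoters of other genes without a combined candidate, with TATCGATA at RpS15Ab, CACGTG at RpL11 and GGTCACAC at RpL22-like. In RpS3A the TCT initiator and an ETS core run together.
RpL21 (chr2L:22247814-22247913, minus strand): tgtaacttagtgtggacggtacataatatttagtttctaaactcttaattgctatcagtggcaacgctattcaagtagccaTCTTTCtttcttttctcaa
RpL5 (chr2L:22536631-22536730, minus strand): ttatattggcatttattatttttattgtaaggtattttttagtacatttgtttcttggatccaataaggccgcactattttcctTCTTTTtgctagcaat
RpL9 (chr2L:11004134-11004233, minus strand): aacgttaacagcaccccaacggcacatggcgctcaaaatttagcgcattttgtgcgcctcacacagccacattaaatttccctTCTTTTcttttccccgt
RpS3A (chr4:67188-67287, minus strand): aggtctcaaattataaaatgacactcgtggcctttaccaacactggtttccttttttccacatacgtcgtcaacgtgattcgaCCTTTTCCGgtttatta

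A gene was counted as bound when the summit of a peak in the combined thresholded list lay within 500 bp of one of its TSSs. Of the 92 ribosomal protein genes, 20 were bound (21.7%), against 1010 of the 13968 protein-coding genes on the chromosome arms (7.23%). The strongest peak was taken for each gene, and the 20 genes had 20 different ones. Without the stalk genes and the genes ending in -like, 12 of 47 large-subunit genes (25.5%) and 8 of 37 small-subunit genes (21.6%) were bound. None of the 3 genes of the acidic stalk of the large subunit (RpLP0, RpLP1, RpLP2) and none of the 5 genes ending in -like was bound. With 1 group and 2 replicates, no test between conditions is possible, and all shares are given as descriptions of these lists.

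Signal is the authors' measure of enrichment at a peak, with a scaling that is not given in the sources used here. It is used to rank peaks within a list and not to compare lists. RpS29, which encodes a small zinc-binding protein of the small subunit, had the strongest peak of the set. Its signal was 244.6 in the combined list, rank 55 of 1725, at chr3R:9777964-9778090, with the summit in an exon 9 bp downstream of a TSS. In the replicates' own candidate lists it had 82.2 (rank 90 of 93043) in replicate 1 and 164.9 (rank 42 of 113872) in replicate 2. Both replicates thus placed it among their 100 strongest candidates, and it was in both thresholded lists.

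RpS6, whose product is the substrate of S6 kinase downstream of Tor, came next with a signal of 123.7 (rank 204, chrX:7901194-7901449, exon, 9 bp downstream of a TSS). It had 36.4 in replicate 1 (rank 528) and 89.7 in replicate 2 (rank 161). A pseudogene, CR33222, starts 20 bp from the same summit. RpL32, known as rp49 and widely used as a reference gene in fly expression work, had 121.5 (rank 217, chr3R:30046207-30046462). Its summit lay 174 bp upstream of the TSS and nearer to the TSS of CG7943, at 135 bp. The replicates gave RpL32 49.3 (rank 272) in replicate 1 and 77.0 (rank 214) in replicate 2.

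A pair of large-subunit genes on arm 2L followed, and both replicates' thresholded lists held them. RpL24, which encodes a protein at the interface of the subunits, had 116.4 (rank 246, chr2L:13395020-13395275), with the summit 17 bp upstream of a TSS and no other gene's TSS within 500 bp. It had 43.5 in replicate 1 (rank 355) and 68.0 in replicate 2 (rank 292). RpL7 had 115 (rank 254, chr2L:10200992-10201057), in an exon 37 bp downstream of a TSS, and 49.2 in replicate 1 (rank 275) and 70.5 in replicate 2 (rank 263). The TSS of Ripalpha lay 67 bp from the RpL7 summit.

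The other 15 bound genes had signals of 49.9 to 99.2. On arm 3R these were RpL34b (99.2), RpS27 (98.8), RpS20 (92.6), RpL34a (55.6) and RpS25 (49.9), the weakest of the 20. On the X they were RpS28b (77.7), RpL35 (60.7), RpS15Aa (58.3) and RpL37-1 (55.5). Arm 3L held RpL23A (67.6), whose product sits where the nascent chain leaves the ribosome, RpS12 (63.2), known in flies for its part in cell competition, and RpL28 (60.4). RpL30 on arm 2L had 73.5, and RpL41 and RpL23 on arm 2R had 67.1 and 55.8. The median of all 20 was 70.5 (interquartile range 59.9 to 103.2), close to that of the 739 other promoter peaks of the combined list (67.2, 55.3 to 96.4).

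**Figure D1:**
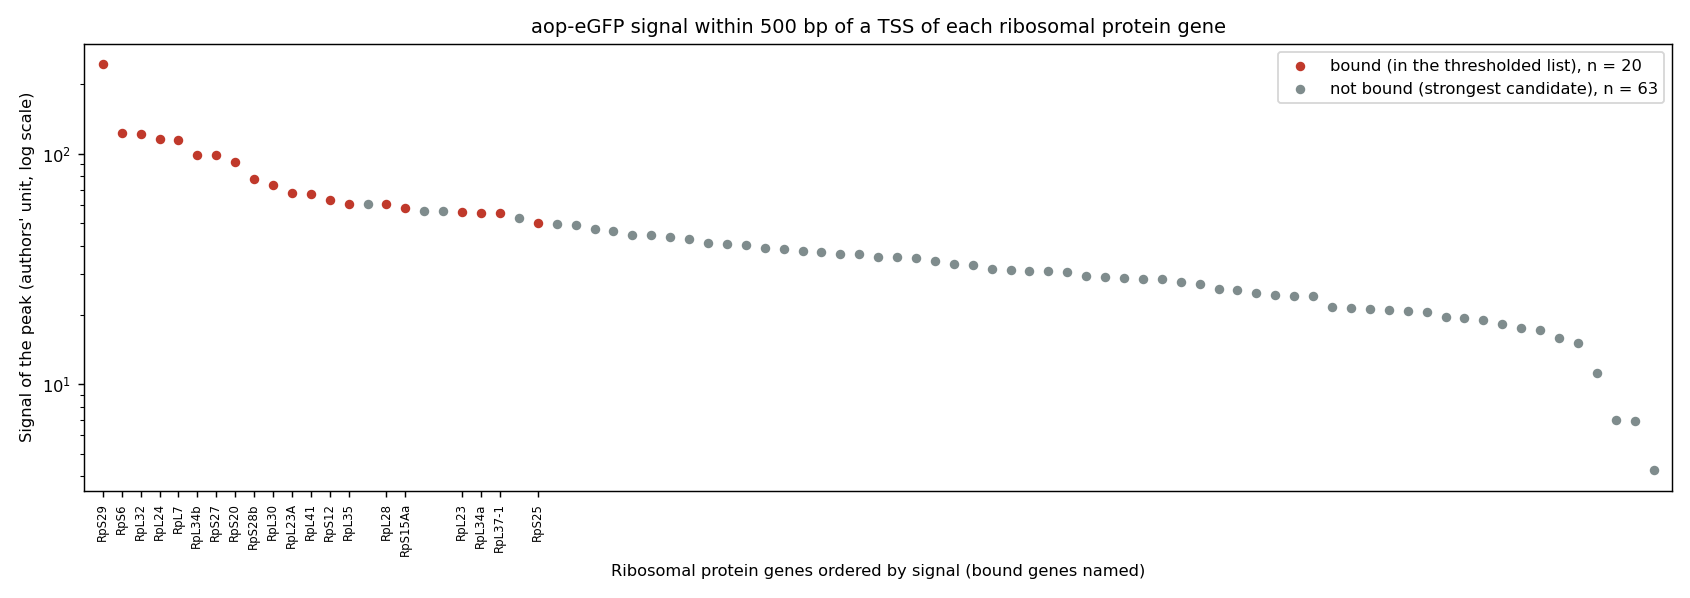
Signal of the peak or strongest candidate within 500 bp of a TSS (vertical axis, the authors' unit, log scale) for the 83 ribosomal protein genes that had one, ordered by signal, with the bound genes named. Red points are the 20 bound genes and grey points the 63 others. RpS29 stands at 244.6, the next gene, RpS6, at 123.7, and bound and other genes interleave between 60.5 and 49.9.

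Members were spread over 6 of the 7 arms. Bound shares were 5 of 14 genes on the X (35.7%, against 6.42% of all protein-coding genes there), 7 of 23 on 3R (30.4% against 7.86%), 3 of 14 on 3L (21.4% against 7.70%), 3 of 19 on 2L (15.8% against 7.60%) and 2 of 21 on 2R (9.52% against 6.52%). The single member on chromosome 4, RpS3A, was not bound. The counts per arm are small.

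How many ribosomal protein genes count as bound depends on the list, while their share was above that of all protein-coding genes in each. In the conservative list 24 members had a summit within 500 bp of a TSS (26.1%, against 6.51% of all protein-coding genes). The thresholded list of replicate 1 gave 8 (8.70%, against 3.08%) and that of replicate 2 gave 12 (13%, against 5.16%). The conservative list held 18 of the 20 bound genes, without RpL34a and RpS25. It also held 588 of the 739 other promoter peaks of the combined thresholded list (79.6%). Among members it added RpS4, RpL14, RpL3, RpS21, RpL27 and RpL7A, so that 26 members were in either list.

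**Figure D2:**
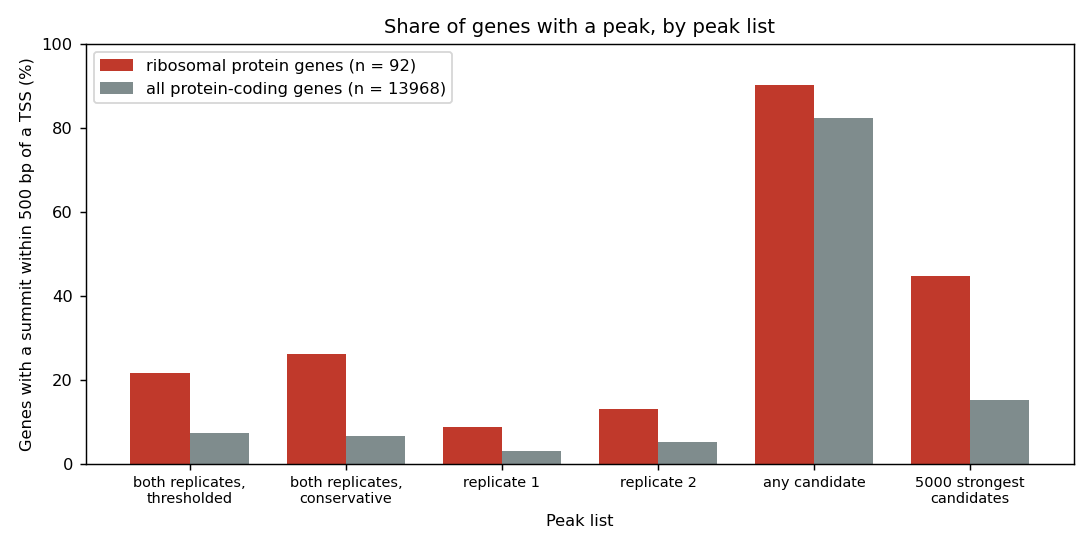
Percentage of genes with a summit within 500 bp of a TSS (vertical axis) in 6 peak sets (horizontal axis), for the 92 ribosomal protein genes (red) and all 13968 protein-coding genes (grey). Ribosomal protein genes stand at 21.7% against 7.23% in the combined thresholded list, and the shares lie closest in ratio for any candidate, 90.2% against 82.3%.

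Those 6 genes differ from the bound ones by the authors' reproducibility measure and not by strength alone. In the candidate list behind the combined thresholded list, RpS4 had a signal of 60.5, RpL14 56.6, RpL3 56.4, RpS21 52.6, RpL27 49.5 and RpL7A 49.3. The first 4 were stronger than RpS25, the weakest bound gene. Their global irreproducible discovery rate (IDR), which the thresholded list keeps at 0.01 or less, was 0.0142 for RpS4, 0.186 for RpL14, 0.0368 for RpL3, 0.0405 for RpS21, 0.0121 for RpL27 and 0.0119 for RpL7A. In the other combined ranked list, from which every conservative peak comes, it was 0.00332 for RpS4, 0.00530 for RpS21, 0.00730 for RpL7A, 0.00850 for RpL27, 0.00872 for RpL3 and 0.00993 for RpL14. RpL14 was also in the thresholded list of replicate 2, with a signal of 40.6 (rank 933), and had no candidate within 500 bp of a TSS in replicate 1.

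Agreement between replicates at bound ribosomal protein genes was like that at other promoters. Of the 20 peaks, 7 (35.0%) overlapped a peak in both replicates' thresholded lists by at least 1 bp, against 242 of the 739 other promoter peaks (32.7%). The 7 were those of RpS29, RpS6, RpL32, RpL24, RpL7, RpL34b and RpL30. A further 5 were in 1 list only, RpS28b in that of replicate 1, and RpS27, RpS20, RpL23A and RpL41 in that of replicate 2. The remaining 8 were in neither and were called only on the replicates together, namely RpS12, RpL35, RpL28, RpS15Aa, RpL23, RpL34a, RpL37-1 and RpS25. By replicate, the list of replicate 1 held 8 of the 20 (40.0%, against 39.6% of the other promoter peaks) and that of replicate 2 held 11 (55.0%, against 64.3%).

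Every bound gene had a candidate within 500 bp of a TSS in both replicates. Signals of the 20 ranged from 17.5 to 82.2 with a median of 31.3 in replicate 1, and from 22.3 to 164.9 with a median of 42.6 in replicate 2. Among the 20, RpL28, RpS25 and RpL41 had the widest gaps in rank between the replicates, taken as the ratio of the ranks. RpL28 had 35.0 (rank 569) in replicate 1 and 22.4 (rank 6224) in replicate 2. RpS25, the weakest bound gene, had 28.0 (rank 982) in replicate 1 and 22.3 (rank 6310) in replicate 2, and RpL41 had 19.0 (rank 4337) in replicate 1 and 40.7 (rank 927) in replicate 2. Across the 71 members with a candidate in both replicates, Spearman's rho of the signals was 0.670. It is a description, since many members share promoter elements and all come from the same pair of libraries. The strongest candidates of a gene can also be different sites. At RpS10b they lay 427 bp downstream of a TSS in replicate 1 and 51 bp upstream in replicate 2.

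**Figure D3:**
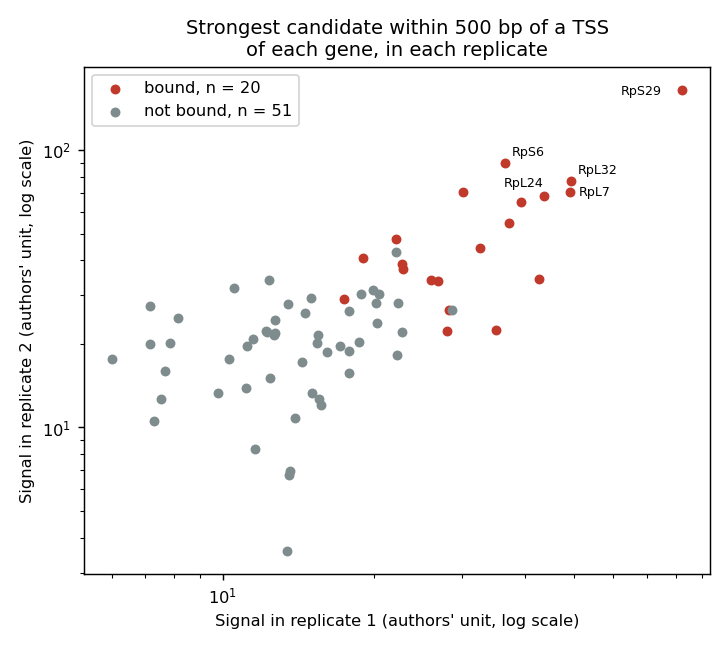
Signal of the strongest candidate within 500 bp of a TSS in replicate 1 (horizontal) and in replicate 2 (vertical), both in the authors' unit on log scales, for the 71 ribosomal protein genes with a candidate in both. Red points are the 20 bound genes, grey points the 51 others. RpS29 is highest in both, at 82.2 and 164.9.

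Most of the 72 members that were not bound still had a candidate at their promoters, and many of these were strong ones. A candidate lay within 500 bp of a TSS of 83 members (90.2%), against 82.3% of all protein-coding genes. One of the 5000 strongest candidates, a cut set after the values had been seen, lay there in 41 members (44.6%, against 15.1%), of which 21 were not bound. Over the 63 members with a candidate but no peak, the median signal was 30.9 (interquartile range 21.4 to 38.9), against 21.9 over the 10427 other protein-coding genes of that kind.

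The strongest of these included the 6 genes of the conservative list and RpL17, RpL19 and RpL31. RpL17 had a signal of 47.2 (rank 2055 of 147076), with 18.8 in replicate 1 and 30.3 in replicate 2. RpL19 had 44.4 (rank 2456), with 12.3 in replicate 1 and 33.9 in replicate 2, and RpL31 had 44.4 (rank 2463), with 17.8 in replicate 1 and 26.2 in replicate 2. Among members whose products are made as fusions with ubiquitin, RpS27A had 24.98 (rank 23956) and RpL40 21.5 (rank 38118), and RpS30, made as a fusion with a ubiquitin-like protein, had 29.6 (rank 12529). The gene missed by the rule, sta, had 29.3 (rank 13020) and was not bound.

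At the other end, 9 members had no candidate within 500 bp of any TSS in the combined ranked list. They were RpL5 and RpL11, whose products bind 5S ribosomal RNA, RpL10, RpL21, RpL9, RpL38, RpS3A, RpS15Ab and RpL22-like. RpL5 (550 bp downstream), RpL11 (600 bp downstream), RpL22-like (526 bp upstream), RpS15Ab (514 bp downstream) and RpL9 (775 bp upstream) had a candidate just beyond that distance, with signals of 23.5, 8.58, 16.6, 16.2 and 28.4. For RpL10, RpL21, RpL38 and RpS3A the nearest candidate lay farther off, at 2536, 4434, 9491 and 48204 bp. In the replicates' own lists, RpL9 had candidates within 500 bp in both, with a signal of 13.6 in replicate 1 and 6.94 in replicate 2. RpL5 (9.38) and RpS15Ab (11.1) had one in replicate 1 only, RpL11 (20.3) and RpL21 (21.2) in replicate 2 only, and RpL10, RpL38, RpS3A and RpL22-like in neither.

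Duplicated ribosomal protein genes gave 9 pairs, of which 1 was bound at both copies. RpL34b had 99.2 and RpL34a 55.6, but the summit of RpL34a lay 219 bp upstream of its TSS and 10 bp from the TSS of Trmt61. In 3 pairs a single copy was bound. RpL37-1 had a peak of 55.5, while RpL37-2 had a candidate of 11.2 at 482 bp. RpS28b had 77.7 and RpS28a a candidate of 25.8, and RpS15Aa had 58.3 while RpS15Ab had none. In each of these 3 the unbound copy is the shorter gene, at 422 bp for RpL37-2, 304 bp for RpS28a and 724 bp for RpS15Ab, against 1498, 1039 and 2069 bp for the bound copies. The other 5 pairs had no peak at either copy, with candidates of 33.0 for RpL10Ab and 19.1 for RpL10Aa, 39.0 for RpS10b and 27.2 for RpS10a, 28.9 for RpS14b and 20.7 for RpS14a, 25.6 for RpS19a and 20.9 for RpS19b, and 34.2 for RpS5a and 30.9 for RpS5b. Copies with near-identical genomic sequence around their TSSs could share reads, and how the authors placed such reads is not given in the sources used here.

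Summits at bound ribosomal protein genes lay close to the TSS. The median distance to the nearest TSS of the gene was 41.5 bp over the 20 members, against 127 bp over the 990 other bound genes, and 15 of 20 summits (75%) lay within 100 bp, against 40.0%. The 990 are genes and not peaks, so a peak near several genes was counted at each of them. They include farther neighbours at members' peaks, such as eIF1, 340 bp from the RpL28 summit. The 20 members have 20 different peaks, so the 2 sets are not counted in like units. The side was the same in both sets, with 16 of 20 summits upstream of the TSS (80%), against 802 of 990 (81.0%). The 4 downstream summits, at RpS29, RpS6, RpS27 and RpL7, all lay within 37 bp of the TSS, in exons. The farthest were RpL34a (219 bp upstream), RpS20 (194 bp), RpL32 (174 bp), RpL23 (148 bp) and RpL41 (135 bp). All but 2 of the peaks had a width of 256 bp, and those of RpL7 (66 bp) and RpS29 (127 bp) were narrower.

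**Figure D4:**
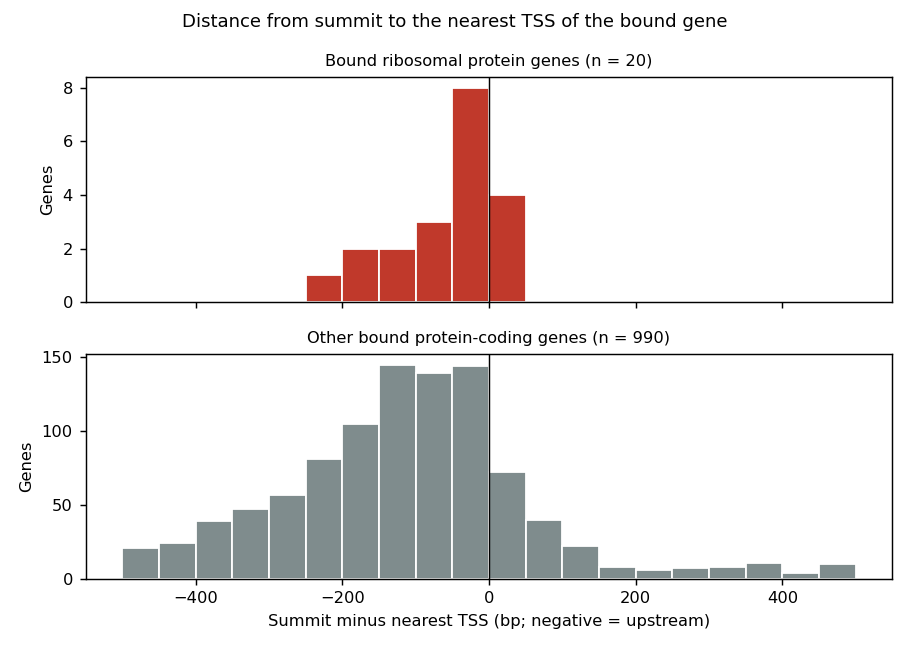
Distance in bp from summit to nearest TSS (horizontal, negative is upstream) against the number of genes per 50 bp bin, for the 20 bound ribosomal protein genes (top, red) and the 990 other bound protein-coding genes (bottom, grey). The 20 summits lie between 219 bp upstream and 37 bp downstream of a TSS, with a median distance of 41.5 bp, and the other genes have a median of 127 bp.

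For 4 of the bound genes the summit lay nearer to another gene's TSS than to their own, so the peak may be counted for a neighbour instead. These were RpL32 with CG7943 (135 bp), RpS20 with CG17271 (139 bp), RpL41 with NaCP60E, a sodium channel gene (47 bp), and RpL34a with Trmt61, a transfer RNA methyltransferase gene (10 bp). At 10 of the 20 (50%) another protein-coding gene had a TSS within 500 bp of the summit, against 227 of the 739 other promoter peaks (30.7%). Over the 10 members with no other protein-coding gene's TSS within 500 bp of the summit, the median distance was 23 bp. No such value was taken for the other bound genes, so it cannot be set against their 127 bp. At RpL28 the other gene was eIF1, which encodes an initiation factor and shares the peak at 340 bp.

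The TCT initiator was frequent at ribosomal protein genes. Its shares among bound and other members were similar when bound was taken from the combined thresholded list. It was searched on the gene's strand as CTTT preceded by C or T and followed by C or T, with the first C within 5 bases of an annotated TSS. It was found at 55 of the 92 members (59.8%), against 297 of all 13968 protein-coding genes (2.13%). Among members it was at 13 of the 20 bound (65.0%) and at 42 of the 72 others (58.3%). In 48 of the 55 the C lay 2 to 5 bases downstream of the annotated TSS, and in only 2 exactly on it, and with 20 bases allowed the element was found at 82 members (89.1%, against 7.62% of all genes). Of the 242 other genes with the element 25 were bound (10.3%), against 965 of the 13634 without it (7.08%). Genes with several annotated TSSs have more chances to match.

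Sites of DREF/BEAF and the E-box were frequent under the peaks of ribosomal protein genes. Of the 20 peaks, 9 (45.0%) held TATCGATA no more than 100 bp from the summit, against 41 of the 739 other promoter peaks (5.55%). These were RpS29, RpS6, RpS12, RpL28, RpS15Aa, RpL34a, RpL37-1, RpL41 and RpS25, and the middle of the nearest site lay a median of 9.5 bp from the summit, against 37.5 bp in the other peaks. In RpS15Aa and RpL34a the middle of the site was 1.5 bp from the summit, and in RpS25 2.5 bp. CACGTG stood in 5 further peaks (25%, against 2.17%), those of RpL24, RpL7, RpL34b, RpL35 and RpS28b. The middle of the nearest CACGTG lay farther from the summit, at a median of 67.5 bp, against 43 bp in the other peaks. Either site was thus in 14 of 20 (70.0%), against 7.58%. The repeat GAGAGAG, bound by Trl, was in none of the 20, against 10.6% of the others. TATAAA was in 1 within this distance of the summit, that of RpS25, against 27.1%, and GGTCACAC in 2, those of RpL30 and RpL7 (10%, against 3.79%).

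**Figure D5:**
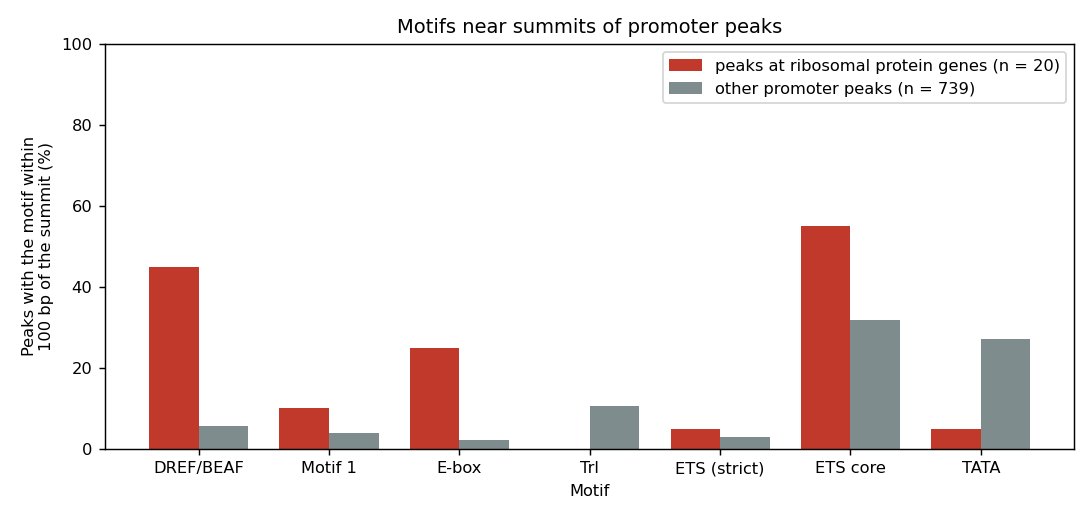
Percentage of peaks with a motif within 100 bp of the summit (vertical axis) for 7 motifs searched on both strands (horizontal axis), in the 20 peaks at ribosomal protein genes (red) and the 739 other promoter peaks (grey). The DREF/BEAF site is at 45.0% against 5.55% and the E-box at 25% against 2.17%, while the Trl repeat is at none of the 20.

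The same sites were searched in the promoters of all members. From 250 bases before to 50 bases after a TSS, TATCGATA was in 28 of the 92 members (30.4%), against 10.2% of all protein-coding genes, and CACGTG in 15 (16.3%, against 5.29%). Members with TATCGATA were bound in 9 of 28 cases (32.1%) and members without it in 11 of 64 (17.2%). Members with CACGTG were bound in 6 of 15 cases (40.0%) and those without it in 14 of 77 (18.2%). The order was the same for CGGAA (22.2% with, 20.7% without) and the TCT initiator (23.6% with, 18.9% without). It was the opposite for GGTCACAC (13.3% with, 23.4% without), CCGGAAG (16.7% with, 22.1% without) and TATAAA (19.1% with, 24.4% without). The 1 member with GAGAGAG was not bound. The same shares in other genes were 9.27% with and 6.90% without TATCGATA, and 8.29% with and 7.07% without CACGTG. For the ETS sites they were 13.5% with and 7.04% without CCGGAAG, and 9.16% with and 5.69% without CGGAA. They were 9.34% with and 6.93% without GGTCACAC, 7.34% with and 6.91% without TATAAA, and 16.0% with and 6.24% without GAGAGAG. The member counts are small, and whether they differ was not tested. Over the whole promoter TATAAA was in 9 of the 20 bound members (45.0%) and in 51.1% of all members, against 51.2% of all protein-coding genes, so its low share holds for the window around the summit and not for the promoter.

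An ETS site in its strict form was rare at these peaks and at the other promoter peaks. The peak of RpL37-1 alone among the 20 held CCGGAAG, 92 bp from its summit (5%, against 2.84% of the other promoter peaks). The short core CGGAA, which is contained in CCGGAAG, stood in 11 (55.0%, against 31.9%). The nearest core lay a median of 49 bp from the summit, against 35 bp in the other peaks. Over whole promoters CGGAA was in 14 of the 20 bound members (70.0%), in 49 of the 72 others (68.1%) and in 41.8% of all protein-coding genes, and CCGGAAG in 6 of the 92 members (6.52%, against 1.42%). A match is a description of the letters in a window and not a shown binding site.

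Gene length and embedded small nucleolar RNA genes, which many ribosomal protein genes carry in their introns, showed little difference between bound and other members. Median gene length was 1315 bp over bound members and 1310.5 bp over the rest. Small nucleolar RNA genes lay within 28 of the 92 members, and 7 of these 28 were bound (25%), against 13 of the 64 without one (20.3%). Among other protein-coding genes 56 were such hosts, of which 6 were bound (10.7%).

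Other gene lists of translation and growth were counted in the same way, beside the 21.7% of ribosomal protein genes and the 7.23% of all protein-coding genes. Of 73 mitochondrial ribosomal protein genes 9 were bound (12.3%), among them mRpL41 (signal 468.7), mRpS23 (429) and mRpS10 (305.5), which exceed every cytoplasmic member. Of 44 genes of initiation factors 5 were bound (11.4%), led by eIF6 (381.2), whose product keeps the subunits apart. These 5 include eIF1, counted through the peak of RpL28, whose summit lay 340 bp from the eIF1 TSS. Of 9 genes of elongation and termination 1 was bound, eEF5 (62.8), of 18 ribosome assembly genes 2 were, Ns2 (83.0) and again eIF6, and of 7 genes of RNA polymerase I 1 was, Polr1D (45.7). None of 10 genes of RNA polymerase III was bound. Among 14 growth regulators found, of 15 symbols, 4 were bound (28.6%), namely REPTOR (177.2) and Thor (104.3), both of which act downstream of Tor, the Myc partner Max (51.2) and M1BP (43.7).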

How the data were processed

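Per the labels, binding of aop-eGFP was assayed by ChIP-seq in 2 replicates. The authors deposited peak lists on dm6 with a signal value, a score limited to 1000 and, in the ranked lists, the −log10 of the global IDR per candidate. Which aligner and peak caller they used was not stated in the labels. All 1725 thresholded and all 1473 conservative peaks were found in 1 of 2 combined ranked lists with a global IDR of at most 0.01, a different list for each. The 16 columns of those lists that describe their input peaks were not used.

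Gene models came from Ensembl release 115 and sequence from Release 6, the same assembly. Summits were compared with all annotated TSSs of 13968 protein-coding genes on 7 arms, where 1692 of the 1725 thresholded peaks lie, with Python 3.11.15, pandas 2.3.3 and numpy 2.4.6, by code tested on simulated data. Where a gene had several peaks or candidates, the strongest was used. Named genes are all bound members, the 10 strongest unbound ones, both copies of duplicated genes, taken as symbols that end in a or b, and members without a candidate. Others, such as the RpL37 pair and the genes of the other lists, were named after their values were seen. A gene that the rule names is not reported here. Members, lists and motifs were chosen with earlier results of these data known. No test was run, since there is 1 group. Alternatives changed the TSS window, list, replicate, overlap, assignment and motif distance.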

Additional observations from a re-analysis of the deposited data

How the results depend on the processing

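The count of 20 bound ribosomal protein genes was 12 in the stronger part of the thresholded list above its median signal and 10 at a global IDR of at most 0.001, where 4.02% and 3.19% of all protein-coding genes were bound. It ranged from 8 to 12 with the list of 1 replicate. It lay between 16, with peaks given to the nearest protein-coding gene only, and 24 under the other 6 alternatives. Windows of 250 and 1000 bp gave 20 and 21 members, with 5.72% and 8.78% of all protein-coding genes bound. No share of all genes was taken for the nearest-gene rule, so the 16 has none beside it. The count in both replicates was 7 under both other overlap rules. The median distance of 41.5 bp ranged from 17.5 bp (8 genes) to 36 bp with the list of 1 replicate, and from 36.5 to 44.5 bp under the other 4 alternatives. The 13 of 20 bound members with a TCT initiator became 0 when the C had to stand exactly on a TSS and 19 within 20 bases. In the conservative list the element was at 18 of the 24 members bound there. It was at 7 of 8 with the list of replicate 1 and at 10 of 12 with that of replicate 2. No paired analysis was possible because there is 1 group. Read depth is unknown, so an absent peak does not show absent binding.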
